A study of Mus musculus with 19 samples.

Results

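Kidney RNA of mice given Cmpd17b was compared with kidney RNA of mice given vehicle, over the BPH/2J and BPN/3J strains together and with the strain difference held as a covariate. The comparison used 18 of the 19 mice in the series, 9 treated and 9 given vehicle, with 1 sequencing library per mouse. Its members were all libraries labelled with either treatment, except the library labelled BPH/2J Cmpd17b replicate 1. There were 4 treated and 5 vehicle BPH/2J mice, and 5 treated and 4 vehicle BPN/3J mice. Adult mice received the compound once daily by intraperitoneal injection at 50 mg/kg/day for 28 days, or vehicle for as long, and what the vehicle contained is not given in the sources used here. BPN/3J is a normotensive inbred strain and BPH/2J a hypertensive one, so genetic background and blood pressure cannot be told apart between them. All libraries carry batch label 2. Library numbers run in blocks by group, so an effect of that order cannot be told apart from treatment.

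Cmpd17b is a small-molecule agonist of formylpeptide receptors. These G protein-coupled receptors sit mainly on neutrophils, monocytes and macrophages, bind formylated peptides of bacterial and mitochondrial origin as well as host ligands such as annexin A1, and take part both in the recruitment of leukocytes and in the resolution of inflammation. The kidney clock, to which several of the genes below belong, is a feedback loop. CLOCK, or its relative NPAS2, pairs with BMAL1 and drives genes whose promoters carry E-boxes, among them the Per and Cry genes, and the PER and CRY proteins then repress the pair. In the kidney this loop times the transport of salt and water over the day. The hour at which tissue was collected is not given in the sources used here.

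Library totals ran from 25840900 to 40998600 counts in vehicle mice and from 21400100 to 34244300 in treated mice. The mean difference within strains, treated minus vehicle, was -4828050 counts (exact permutation within strains, two-sided p 0.0228, adjusted p 0.0912 over 4 library measures), and treated totals were also lower in BPH/2J alone (exact permutation p 0.0556) and in BPN/3J alone (exact permutation p 0.175). The library left out held heart transcripts: Myh6, the alpha myosin heavy chain of heart muscle, was at 14199.9 CPM (counts divided by the library total and scaled to a sum common to all libraries), against 0.140 to 28.3 CPM in the other 18, and Slc34a1, the proximal tubule phosphate transporter, was at 5.94 CPM, against 2202 to 4236 CPM. Of the heart muscle markers, 22 of 24 fell among the 241 genes set aside because they stood at 20 CPM or more in that library and at 20 times or more their level in every library outside the treated BPH/2J group. Just inside that fold were Pde1c, at 20.1 times, and Slc41a3, at 20.2 times, and just outside were Plaat1, at 19.8 times, and Asb15, at 19.2 times. The set-aside genes summed to between 1036 and 1267 CPM in the 4 treated BPH/2J libraries kept, against 783 to 943 CPM in vehicle BPH/2J, 758 to 796 CPM in vehicle BPN/3J and 755 to 886 CPM in treated BPN/3J. Myh6 itself was at 26.7, 27.1, 26.7 and 34.0 CPM in the treated BPH/2J libraries and at most 1.65 CPM in the others, on the scale of trimmed mean of M-values (TMM) used for all levels below. Proximal tubule markers, 22 of 22 of them tested, summed to 47949 CPM or more in each of the 18 libraries. Libraries stood apart in other ways as well. Treated BPH/2J replicate 4 had a count for 24796 genes, against 18969 to 21379 genes in the other 17 libraries kept. Vehicle BPH/2J replicate 4 held the highest sum of urothelial markers, at 225 CPM against 67.5 to 130 CPM in the other 17 mice, vehicle BPH/2J replicate 2 the highest sum of macrophage markers, at 235 CPM, and treated BPH/2J replicate 5 the highest mitochondrial share, 26.6% of its counts.

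No gene passed the test for a Cmpd17b effect over both strains. Of 16245 genes tested with edgeR's quasi-likelihood test, 0 (0%) had a Benjamini-Hochberg adjusted p under 0.05. At an unadjusted p under 0.05 there were 503 genes, 3.1% of those tested, where 812 would be even spread, with 223 higher (1.37%) and 280 lower (1.72%) in treated mice. DESeq2 called 2 genes (0.0123%), Per2 and Slc16a1, and limma-voom called 0, with 518 genes at an unadjusted p under 0.05. The median gene differed by a log2 fold change of -0.01, and 7778 genes stood above 0 and 8467 below it. Among the 12321 genes whose mean log2 CPM was 1 or more, the median distance from the log2 fold change to the end of its 95% interval was 0.24. The whole interval lay inside a 2-fold difference for 12096 of these (98.2%), and inside a 1.5-fold difference for 10954 (88.9%).

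**Figure D1:**
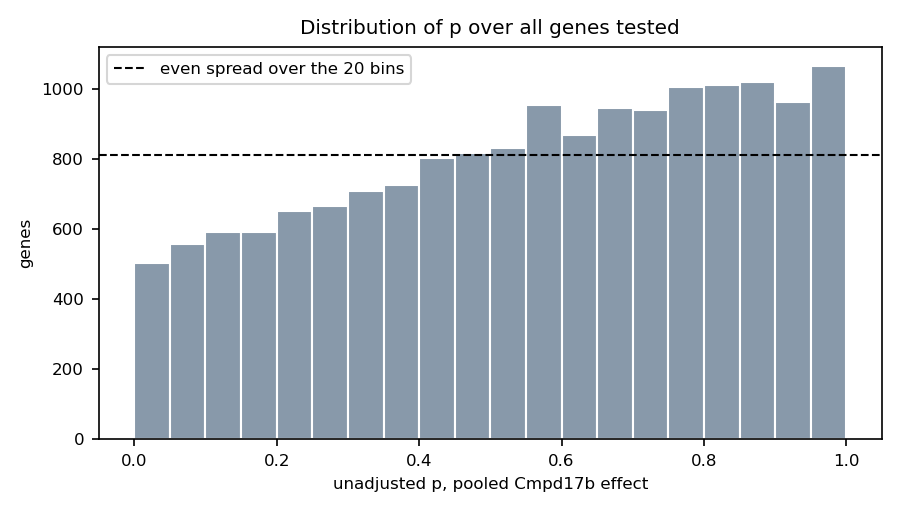
Number of genes (vertical axis) in each of 20 bins of the unadjusted p of the pooled Cmpd17b effect (horizontal axis), with a dashed line at the 812 genes per bin of an even spread. The lowest bin holds 503 genes and the second 557, both under the line, and the bins above 0.5 hold more than the line.

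Per2, a repressor of the circadian clock, had the smallest p of all genes. Its level in treated BPH/2J mice was 14.5, 12.03, 16.2 and 15.3 CPM, against 25.2, 17.3, 21.3, 19.99 and 33.5 CPM in vehicle BPH/2J mice. In treated BPN/3J mice it was 21.6, 11.2, 14.8, 11.4 and 19.8 CPM, against 36.5, 21.1, 31.3 and 30.1 CPM under vehicle. Every treated BPH/2J mouse lay below every vehicle mouse of its strain, and in BPN/3J only the highest treated and the lowest vehicle mouse overlapped. Of all genes tested, 0.689% had groups that did not overlap in BPH/2J and 1.79% in BPN/3J. Over both strains the means were 15.2 ± 3.59 CPM treated and 26.2 ± 6.80 CPM under vehicle (SD, n = 9 each). The log2 fold change of Per2 was -0.80 (95% interval -1.12 to -0.49), with an edgeR p of 4.0e-05 and an adjusted p of 0.649. It was -0.69 in BPH/2J and -0.91 in BPN/3J. DESeq2 gave an adjusted p of 0.00658, which limma-voom put at 0.459. When DESeq2 was repeated without each of the 18 libraries in turn, Per2 was called in 16 refits. The refits share most of their libraries and Per2 had the smallest p in these same data, so repeated calls follow in part from the choice.

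Slc16a1, which encodes the monocarboxylate transporter MCT1 for lactate, pyruvate and ketone bodies, had the smallest p among higher genes. It stood at 30.4, 33.9, 24.6 and 21.3 CPM in treated BPH/2J mice and at 16.3, 25.7, 19.1, 20.9 and 16.5 CPM in vehicle BPH/2J mice. In BPN/3J it stood at 25.2, 44.0, 31.9, 31.5 and 23.2 CPM with treatment and at 12.6, 20.6, 12.3 and 15.8 CPM under vehicle. The groups did not overlap in BPN/3J, while in BPH/2J 1 vehicle mouse lay above 2 of the treated mice. The log2 fold change of Slc16a1 was 0.76 (95% interval 0.43 to 1.08, edgeR p 0.00010, adjusted p 0.816), 0.48 in BPH/2J and 1.03 in BPN/3J. DESeq2 called it (adjusted p 0.0177), limma-voom did not (adjusted p 0.459), and 11 of the 18 DESeq2 refits without 1 library kept the call. The limit given for the refits of Per2 holds for Slc16a1 as well. Without vehicle BPN/3J replicate 1, and without vehicle BPN/3J replicate 3, DESeq2 called 0 genes, and without treated BPH/2J replicate 5 it called 14. Slc16a1 is abundant in heart muscle and stood at 179 CPM in the library left out. In BPN/3J, where its log2 fold change was 1.03, Myh6 was at 1.65 CPM or less in every library. The part of heart transcripts in the BPH/2J value was not tested.

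Of the 7 clock genes that were lower at an unadjusted edgeR p under 0.05, promoters of 4 are shown, picked because the E-box CACGTG, or the D-box TTANGTAA, lies in the window. Both are elements through which the clock drives its own repressors and outputs. The windows of Dbp and Nr1d2, also lower, held neither element, and no window was matched to Per2. Each line holds the 250 bases before a RefSeq start on GRCm38.p6, 5′ to 3′ on the gene's strand, in lower case with the matched motif in capitals. Ciart is on chr3:95882229-95882478 (minus strand), Cry1 on chr10:85185055-85185304 (minus strand), Per1 on chr11:69098699-69098948 (plus strand) and Per3 on chr4:151044666-151044915 (minus strand).
Ciart: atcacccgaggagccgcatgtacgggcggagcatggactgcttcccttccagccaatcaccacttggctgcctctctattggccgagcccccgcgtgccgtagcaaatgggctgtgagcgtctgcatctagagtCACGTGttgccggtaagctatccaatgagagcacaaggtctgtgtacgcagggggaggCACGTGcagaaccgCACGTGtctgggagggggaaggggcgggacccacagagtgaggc
Cry1: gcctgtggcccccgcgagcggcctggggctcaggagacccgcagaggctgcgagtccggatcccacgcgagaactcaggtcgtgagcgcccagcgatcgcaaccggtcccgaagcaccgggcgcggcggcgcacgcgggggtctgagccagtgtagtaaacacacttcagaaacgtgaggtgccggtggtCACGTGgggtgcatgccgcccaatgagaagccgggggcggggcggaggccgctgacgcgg
Per1: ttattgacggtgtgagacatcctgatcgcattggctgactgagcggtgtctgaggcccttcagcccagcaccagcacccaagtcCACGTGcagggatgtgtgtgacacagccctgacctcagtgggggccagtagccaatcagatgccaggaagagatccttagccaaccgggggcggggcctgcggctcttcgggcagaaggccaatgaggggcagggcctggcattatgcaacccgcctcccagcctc
Per3: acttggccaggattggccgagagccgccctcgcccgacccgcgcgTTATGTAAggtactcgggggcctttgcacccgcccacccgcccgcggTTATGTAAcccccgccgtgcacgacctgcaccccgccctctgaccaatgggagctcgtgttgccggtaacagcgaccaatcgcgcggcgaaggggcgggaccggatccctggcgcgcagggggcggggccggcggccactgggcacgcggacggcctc
The capitals mark 3 copies of CACGTG in Ciart, 1 each in Cry1 and Per1, and 2 matches of TTANGTAA in Per3. CACGTG reads the same on both strands, and TTANGTAA was searched on both. Of 32851 promoter windows of this length, 6.02% hold CACGTG, against 6 of the 21 windows matched to clock genes, and 2.06% hold TTANGTAA, against 1 of 21. AGGTCA, the core element of REV-ERB receptors and also searched on both strands, was in 14% of all windows and in 4 of 21. CACGTG was also in both windows of Tef and in that of Bhlhe41, genes that did not reach an unadjusted edgeR p under 0.05, and a second Per1 window held none. A match is a run of letters and not a measured binding site.

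All 19 genes of the clock list were tested, and 10 had an unadjusted edgeR p under 0.05, 3 higher and 7 lower, which is 52.6% of the list against 3.1% of all genes. None passed after adjustment. The list was chosen with earlier results of these data known, so this contrast of shares is not a test of the list. The list's median log2 fold change was -0.19, against -0.01 over all genes tested, with members on both sides of 0. Its median was -0.03 in BPH/2J, with 9 of 19 above 0, and -0.29 in BPN/3J, with 5 of 19 above 0. Leaving out each library in turn gave 9 to 11 members at that threshold, and the other settings tried on the 18 libraries 8 to 13. Within strains the threshold was met by 0 higher and 2 lower members in BPH/2J, where 0.499% and 1.09% of all genes did so, and by 3 higher and 10 lower in BPN/3J, where 2.85% and 2.16% did. Without each BPN/3J library in turn the counts ran from 2 to 4 higher and 6 to 13 lower, with 6 lower without treated replicate 2 or 3 and without vehicle replicate 1 or 3. The sign was the same in both strains for 15 of the 19, against 51.8% of all genes tested.

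The activators stood higher. Bmal1 was at 5.66, 5.68, 5.53 and 1.62 CPM in treated BPH/2J mice and at 2.69, 3.19, 2.87, 3.29 and 1.30 CPM in vehicle BPH/2J mice. In BPN/3J it was at 2.88, 9.42, 6.89, 3.95 and 2.37 CPM with treatment and at 1.48, 3.37, 0.966 and 1.20 CPM under vehicle. Treated mice covered a wider range than vehicle mice in both strains, and 3 mice of each treated group lay above every vehicle mouse of their strain. The log2 fold change of Bmal1 was 1.17 (95% interval 0.48 to 1.86, edgeR p 0.00208, adjusted p 1), 0.79 in BPH/2J and 1.55 in BPN/3J. Npas2, which can take the place of CLOCK, averaged 5.40 ± 2.58 CPM with treatment and 2.77 ± 1.34 CPM under vehicle (SD, n = 9 each). Treated BPN/3J mice, at 4.02, 11.2, 6.97, 5.76 and 3.97 CPM, all lay above vehicle BPN/3J mice, at 1.38, 3.46, 1.41 and 1.74 CPM. In BPH/2J the Npas2 groups overlapped, and its log2 fold change was 0.31 there against 1.68 in BPN/3J (edgeR interaction p 0.0178, adjusted p 1). Clock itself differed little, with a log2 fold change of 0.17 (edgeR p 0.0187), though the BPN/3J groups did not overlap, at 38.3 to 43.4 CPM against 32.3 to 36.1 CPM.

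Of the repressors and outputs, Per1, Per2, Per3, Cry1, Ciart, Nr1d2 and Dbp were lower at an unadjusted edgeR p under 0.05. Ciart, a repressor of the CLOCK and BMAL1 pair, was at 3.58, 1.49, 2.65, 3.99 and 6.10 CPM in treated BPN/3J mice and at 8.60, 4.42, 10.2 and 8.08 CPM under vehicle. Its log2 fold change over both strains was -0.82 (edgeR p 0.00858), and the groups overlapped in each strain. The Per1 groups were farther apart in BPH/2J, at 12.3, 15.4, 15.4 and 17.9 CPM treated and 25.5, 18.8, 19.9, 30.0 and 35.9 CPM under vehicle. Those Per1 groups did not overlap, whereas in BPN/3J they did. The log2 fold change was -0.77 in BPH/2J and -0.13 in BPN/3J (edgeR interaction p 0.036, not called after adjustment). Cry1 stood at -0.62 on the log2 scale, Per3 at -0.39, Nr1d2, which encodes REV-ERB beta, at -0.20, and Dbp, a D-box activator and clock output, at -0.49, with edgeR p-values of 0.0108, 0.0183, 0.0306 and 0.0159. The BPN/3J groups of Cry1 did not overlap, at 1.19 to 1.78 CPM treated and 1.79 to 3.49 CPM under vehicle. Dbp was at 120, 44.0, 67.9, 107 and 136 CPM in treated BPN/3J mice and at 173, 120, 180 and 179 CPM under vehicle, and in BPH/2J its groups overlapped throughout. Nr1d1, which encodes REV-ERB alpha, was not among the 10, with a log2 fold change of 0.15 (95% interval -0.18 to 0.47), nor were Cry2 at -0.20, Tef at -0.16 and Hlf at -0.06.

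**Figure D2:**
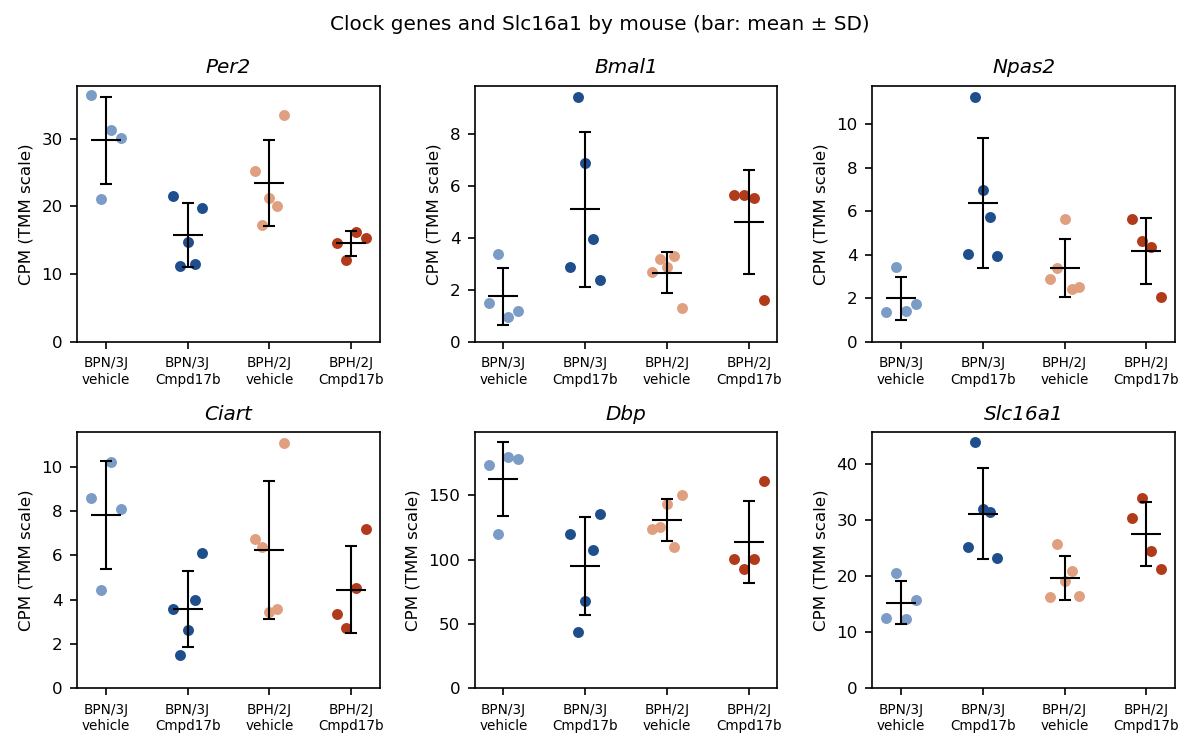
Level in CPM on the TMM scale (vertical axes, linear) of Per2, Bmal1, Npas2, Ciart, Dbp and Slc16a1 in each of the 18 mice, in 4 groups by strain and treatment (horizontal axes), with the horizontal bar at the group mean and whiskers of 1 SD. Treated mice lie lower for Per2 and higher for Slc16a1 in both strains, and 1 treated BPH/2J mouse lies at 1.62 CPM for Bmal1, below the other 3.

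Glucocorticoids also act on Per1, and the list of glucocorticoid-responsive genes had 2 of 14 tested members at an unadjusted edgeR p under 0.05, both lower, where 1.72% of all genes were: Per1 and Tsc22d3, the leucine zipper protein GILZ. Without vehicle BPH/2J replicate 1 there were 4. Tsc22d3 was at 18.3, 28.6, 30.2 and 32.6 CPM in treated and 31.2, 35.8, 41.8, 36.9 and 61.1 CPM in vehicle BPH/2J mice, with a log2 fold change over both strains of -0.41 (edgeR p 0.00929). The groups overlapped by 1 mouse on each side. Of the 14, 13 stood below 0, with a median of -0.19 on the log2 scale. In BPH/2J 13 stood below 0, with a median of -0.24 and 4 lower at that threshold, where 1.09% of all genes were. In BPN/3J 8 stood below 0, with a median of -0.07 and 1 lower, where 2.16% of all genes were. Among all 16245 genes tested, 8335 stood below 0 in BPH/2J and 8246 in BPN/3J.

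Apart from Slc16a1 and Bmal1, 10 higher genes were named by smallest p. Slc2a12, a glucose transporter, was at 12.3, 9.01, 11.8 and 9.02 CPM in treated and 9.88, 7.94, 7.56, 6.41 and 9.20 CPM in vehicle BPH/2J mice, and at 13.0, 14.8, 13.4, 14.9 and 11.5 CPM against 10.3, 10.95, 9.52 and 10.3 CPM in BPN/3J. The groups were apart in BPN/3J and overlapped in BPH/2J, with log2 fold changes of 0.40 and 0.36. Psat1, an enzyme of serine synthesis, was at 34.3, 32.9, 29.9 and 32.7 CPM in treated and 21.6, 31.3, 23.9, 19.97 and 28.1 CPM in vehicle BPH/2J mice. Its log2 fold change was 0.39 (edgeR p 0.000861) over both strains, with 0.38 in BPH/2J and 0.41 in BPN/3J, and its groups overlapped by few mice in each. Slc3a2, the heavy chain shared by several amino acid transporters, averaged 109 ± 13.0 CPM with treatment and 88.4 ± 9.54 CPM under vehicle (SD, n = 9 each), with a log2 fold change of 0.29. Ppard, a nuclear receptor for fatty acids, stood at 0.71 on the log2 scale (edgeR p 0.00275), with treated BPN/3J mice spread from 13.3 to 38.0 CPM and vehicle ones from 7.14 to 14.8 CPM.

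The other higher genes were of mixed function. Adra1a, the alpha-1A adrenergic receptor, averaged 26.1 ± 5.02 CPM with treatment and 18.99 ± 3.97 CPM under vehicle (SD, n = 9 each), and its log2 fold change of 0.44 (edgeR p 0.00122) was 0.52 in BPH/2J and 0.35 in BPN/3J. Cyp2f2, a cytochrome P450, had 0.56 over both strains, and its groups did not overlap in BPN/3J, at 4.77 to 5.39 CPM treated and 2.72 to 4.39 CPM under vehicle. Rbm38, an RNA-binding protein that regulates mRNA stability, had 0.57, Angpt1, the ligand of the endothelial receptor TIE2, 0.25, and Mcc 0.42, each with BPN/3J groups that did not overlap. Such groups were found in BPN/3J for 1.79% of all genes, and the genes named here were picked by smallest p. Dtx4, a ubiquitin ligase of the Notch pathway, had 0.46 over both strains but 0.78 in BPN/3J and 0.15 in BPH/2J (edgeR interaction p 0.0109, adjusted p 1). Rbm38, Adra1a, Angpt1 and Mcc were more abundant in the heart-profile library than in any kidney library, at 99.3, 71.3, 57.8 and 12.4 CPM. Their log2 fold changes in BPN/3J, where the heart marker list summed to 303 to 374 CPM with treatment and 320 to 335 CPM under vehicle, were 0.69, 0.35, 0.24 and 0.45. In BPH/2J that list summed to 465.96 to 495 CPM and 267 to 332 CPM, and the part of heart transcripts in these differences was not tested. All of these genes had an adjusted p of 1 by edgeR.

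Of the 12 lower genes with the smallest p, Per2 is described above. Lrat, the enzyme that makes retinyl esters for storage of vitamin A, was at 2.34, 1.32, 2.03 and 0.926 CPM in treated and 2.84, 2.52, 2.61, 2.95 and 2.81 CPM in vehicle BPH/2J mice. In BPN/3J it was at 2.41, 2.18, 2.34, 2.55 and 2.17 CPM against 2.62, 3.43, 3.20 and 3.26 CPM. Mitd1, which acts in the last step of cell division, was at 4.15, 4.92, 4.40 and 3.64 CPM in treated and 5.86, 5.68, 6.44, 5.26 and 4.97 CPM in vehicle BPH/2J mice, and at 4.81, 4.89, 4.99, 4.32 and 4.91 CPM against 5.24, 6.09, 5.18 and 6.34 CPM in BPN/3J. In each strain all treated mice lay below all vehicle mice for both Lrat and Mitd1, and they were the only lower genes of which this held (0.0123% of those tested). Gm34458 and Gm53621, predicted loci with mean levels near or under 1 CPM, were the 2 higher ones (0.0123%). The log2 fold change of Lrat was -0.57 (edgeR p 0.00111) and that of Mitd1 was -0.32 (edgeR p 0.00179). For 0 genes did all 9 treated mice lie on 1 side of all 9 vehicle mice.

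Mycl, a transcription factor of the MYC family, averaged 1.41 ± 0.542 CPM with treatment and 2.49 ± 0.856 CPM under vehicle (SD, n = 9 each), and its groups were apart in BPN/3J only. Coq10b, a coenzyme Q-binding protein of mitochondria, was at 42.5, 51.6, 51.1 and 26.7 CPM in treated and 61.8, 57.6, 40.0, 55.3 and 55.8 CPM in vehicle BPH/2J mice, and at 51.6, 44.2, 51.2, 44.5 and 54.4 CPM against 70.6, 60.7, 75.9 and 63.9 CPM in BPN/3J. The BPN/3J groups of Coq10b did not overlap, and its log2 fold change over both strains was -0.40 (edgeR p 0.00209). Nmrk1, a kinase that makes NAD precursors from nicotinamide riboside, stood at -0.30, Sik1, a salt-inducible kinase, at -0.33, and Mcm10, a replication factor, at -0.43 on the log2 scale. Zfp7, a zinc finger protein, had -0.34 over both strains, with -0.56 in BPH/2J and -0.12 in BPN/3J (edgeR interaction p 0.0144, adjusted p 1). Pgpep1l had -0.65. Nat8f5, at -0.61, and Nat8f6, at -0.38, belong to a family of closely similar acetyltransferase genes among which reads can be split, so their values are uncertain. The sign of each of the 24 named genes was the same under all 33 alternative settings. These settings share most of their libraries and the genes were picked by their pooled p, so a kept sign follows in part from the choice.

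**Figure D3:**
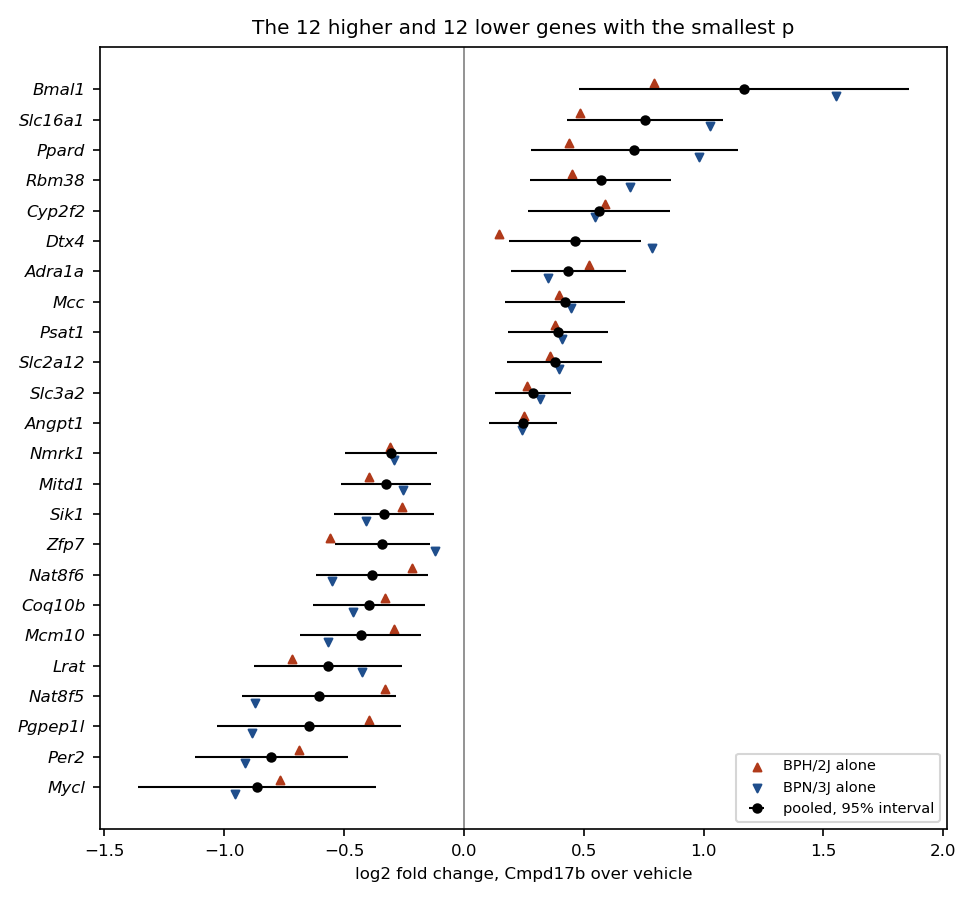
Log2 fold change of Cmpd17b over vehicle (horizontal axis) for the 12 higher and 12 lower genes with the smallest p (vertical axis), with black points and lines for the pooled value and its 95% interval and triangles for BPH/2J and BPN/3J alone. Every interval is clear of 0 before adjustment, which follows from the choice by smallest p, and the triangles of both strains lie on the same side of 0 for each gene.

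These 24 genes were picked by their pooled p, so agreement of the strains among them follows in part from the choice. Over all 16245 genes, 51.8% had the same sign in both strains. The strains share no library. The log2 fold changes of the strains had a Pearson r of -0.09 and a Spearman rho of 0.03 across genes, which are not independent replicates. BPH/2J had 258 genes (1.59%) at an unadjusted edgeR p under 0.05, and 141 of them (54.7%) had the same sign in BPN/3J. BPN/3J had 814 (5.01%), of which 425 (52.2%) had the same sign in BPH/2J. The lists shared 22 genes, 0.135% of all genes, 8.53% of the BPH/2J list and 2.703% of the BPN/3J list, and 16 of these had the same sign. Besides Per2, Slc16a1, Cyp2f2, Psat1, Lrat, Adra1a and Ppard, those 16 held Prdm1, a transcriptional repressor of lymphoid and other cells, at 0.96, Camk1g at 0.68, Unc5c at 0.42 and Plaat1 at 0.87 on the pooled log2 scale. Gsdmc3, at -2.26, and Psca, at -2.13, were among them as well, and Psca is a surface protein of urothelium and other epithelia. The test of the strain difference in the Cmpd17b effect called 0 genes, with 488 (3%) at an unadjusted edgeR p under 0.05. Within strains edgeR called 0 genes in each, and DESeq2 called 1 in BPH/2J and 26 in BPN/3J.

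**Figure D4:**
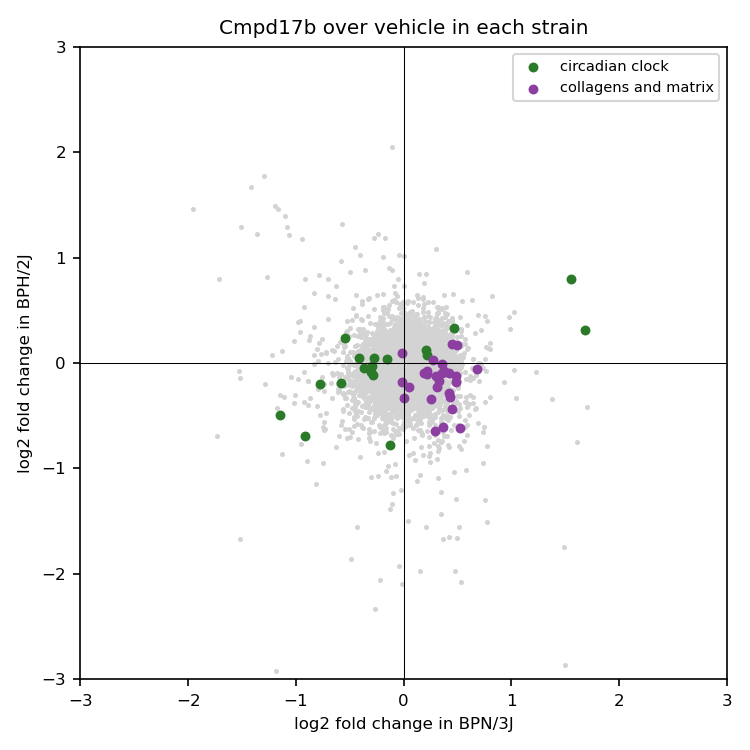
Log2 fold change of Cmpd17b over vehicle in BPN/3J (horizontal axis) against BPH/2J (vertical axis) for the 12321 genes whose mean log2 CPM was 1 or more, of which 8 lie outside the axes, with clock genes in green and collagens and matrix genes in purple. The cloud has little slope, with a Pearson r of -0.03 and a Spearman rho of 0.08 across the genes plotted, and the matrix genes lie mostly to the right of 0 and below it.

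Among formylpeptide receptors and their ligands, Fpr1 and Fpr2, the receptors that Cmpd17b activates, were barely detected. Fpr1 averaged 0.0366 ± 0.0543 CPM with treatment and 0.0474 ± 0.0371 CPM under vehicle, and Fpr2 averaged 0.0808 ± 0.128 CPM and 0.0707 ± 0.0733 CPM (SD, n = 9 each). Of the 17 list members 16 were in the counts, and 11 of the 17 were not tested. Fpr1 and Fpr2 were too low for the test, and a difference was not detectable at this depth. None of the 6 tested members had an unadjusted edgeR p under 0.05. Anxa1, which encodes the ligand annexin A1, was at 7.38 ± 1.49 CPM with treatment and 7.88 ± 3.51 CPM under vehicle (SD, n = 9 each), with a log2 fold change of 0.00 (95% interval -0.33 to 0.33). In bulk tissue, fewer cells of a type and less RNA per cell cannot be told apart.

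At an unadjusted edgeR p under 0.05, 1.37% of all genes were higher and 1.72% lower. Of 12 renin-angiotensin genes tested, 1 was higher at that threshold and 0 lower, with a median of 0.04. That was Agtr1a, the angiotensin II receptor, at 38.2, 31.5, 41.4 and 27.1 CPM in treated and 30.2, 34.9, 27.8, 21.03 and 28.9 CPM in vehicle BPH/2J mice, and at 42.4, 42.7, 45.5, 41.6 and 42.1 CPM against 34.9, 41.9, 28.9 and 39.4 CPM in BPN/3J. The groups overlapped in both strains, and its log2 fold change was 0.26 (edgeR p 0.017, adjusted p 1). Ren1, which encodes renin, stood at 0.24 (95% interval -0.20 to 0.67), Agt, which encodes angiotensinogen, at -0.26 and Ace, the converting enzyme, at 0.02. None of 15 nitric oxide and endothelin genes reached that threshold: Nos3, the endothelial nitric oxide synthase, was at -0.04 (95% interval -0.32 to 0.25) and Edn1, which encodes endothelin-1, at -0.32 (95% interval -0.87 to 0.22). Of 19 genes of renal sodium transport 0 were higher and 1 lower, with a median of 0.03.

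Collagens and matrix genes had 0 of 29 tested members at an unadjusted edgeR p under 0.05 over both strains, and a median of 0.06. Without 1 library the pooled median ran from -0.02 to 0.19, with 3 higher without treated BPH/2J replicate 3 and 2 without vehicle BPH/2J replicate 2 or treated BPH/2J replicate 4. Within strains they stood on opposite sides: the median was -0.17 in BPH/2J, with 25 of 29 below 0, and 0.36 in BPN/3J, with 27 of 29 above 0 and 10 higher at an unadjusted edgeR p under 0.05, where 2.85% of all genes were. Without each BPN/3J library in turn that median stayed between 0.23 and 0.47, and the count ran from 5, without vehicle replicate 1 or 3, to 13, without vehicle replicate 2 or 4. The BPH/2J median was -0.02, with 12 of 29 above 0, without vehicle replicate 2. The test of the strain difference gave 3 of the 29 an unadjusted edgeR p under 0.05 and called 0. Col1a1, a chain of collagen I, was at 5.96, 5.07, 6.70 and 9.49 CPM in treated and 4.20, 24.9, 6.18, 6.64 and 3.89 CPM in vehicle BPH/2J mice, with vehicle replicate 2 far above the rest. In BPN/3J it was at 4.31, 5.64, 6.69, 4.13 and 5.96 CPM treated and 3.26, 5.77, 2.12 and 4.55 CPM under vehicle. The pooled log2 fold change of Col1a1 was 0.00 (95% interval -0.96 to 0.96), about 2-fold to either side. Col3a1, a chain of collagen III, had -0.05 and Fn1, which encodes fibronectin, 0.15. Of 25 genes of profibrotic signalling and matrix turnover 1 was higher and 0 lower at an unadjusted edgeR p under 0.05, where 1.37% and 1.72% of all genes were. Timp3, an inhibitor of matrix proteases, was the higher one, at 1957 ± 165 CPM with treatment and 1682 ± 157 CPM under vehicle (SD, n = 9 each). Its log2 fold change was 0.22 (edgeR p 0.011). Tgfb1, which encodes transforming growth factor beta 1, had 0.18 and Ccn2, connective tissue growth factor, had -0.16, made of -0.69 in BPH/2J and 0.37 in BPN/3J.

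Immune and inflammatory lists had few members at an unadjusted edgeR p under 0.05, where 1.37% of all genes were higher and 1.72% lower. Cytokines, chemokines and adhesion molecules had 0 of 16, macrophage markers 0 of 15, and T and B lymphocyte markers 0 of 11. Without 1 library the most was 3 lower for cytokines (without treated BPN/3J replicate 5), 1 for macrophage markers, and 2 higher for lymphocytes (without vehicle BPH/2J replicate 2). Interferon-stimulated genes had 2 of 22, both lower (Oas2 at -1.08 and Mx1 at -0.87), and 20 of the 22 stood below 0, with a median of -0.47 in BPH/2J and 0.05 in BPN/3J. The count was 5 without treated BPN/3J replicate 5 and from 1 to 3 without each other library. The sum of macrophage markers in BPH/2J ran from 92.7 to 235 CPM under vehicle and from 90.0 to 109 CPM with treatment, with replicate 2 of the vehicle group highest. Without that library the pooled median of the macrophage markers moved from -0.11 to 0.24 and their BPH/2J median from -0.49 to 0.09, while the pooled median of the interferon-stimulated genes stayed at -0.17. MHC class II genes, which present antigen, had a median of -0.79 in BPH/2J, which was -0.33 without vehicle replicate 2, and 0.33 in BPN/3J, which was 0.11 without treated replicate 5. Of the 9 tested, 1 was higher and 0 lower over both strains, and 6 had an unadjusted edgeR p under 0.05 for the strain difference, as 3% of all genes did. Of 13 neutrophil genes 8 were too low to be tested. Of the 5 tested, S100a8, a calcium-binding protein of neutrophils, was higher at 0.93 and Lcn2, which injured tubules also make, lower at -1.13. S100a8 was at 1.24, 2.19, 1.60 and 1.45 CPM in treated and 0.181, 0.293, 0.596, 0.422 and 0.951 CPM in vehicle BPH/2J mice. Those groups did not overlap, and in BPN/3J its log2 fold change was 0.10. Lcn2 stood at 11.5 CPM in vehicle BPH/2J replicate 2 and at most 3.21 CPM in any other mouse.

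Stress and injury genes stood mostly below 0 in BPH/2J, and over both strains. Among all genes tested, 1.37% were higher and 1.72% lower over both strains at an unadjusted edgeR p under 0.05, the threshold of the counts below. Of 23 tubular injury genes 0 were higher and 2 lower (Lcn2 and Atf3), with 19 below 0 and a median of -0.18. In BPH/2J 22 of the 23 stood below 0, with a median of -0.45, whereas in BPN/3J 15 stood above 0, with a median of 0.07. There 2 were higher and 0 lower at an unadjusted edgeR p under 0.05, where 2.85% and 2.16% of all genes were. Without vehicle BPH/2J replicate 2 there were 0 at that threshold, 9 of the 21 then tested stood above 0 and the median was -0.11. Havcr1, which encodes the injury marker KIM-1, averaged 19.1 ± 7.96 CPM with treatment and 28.7 ± 17.3 CPM under vehicle (SD, n = 9 each), with a log2 fold change of -0.49 (95% interval -1.10 to 0.13). Of 22 immediate early genes 3 were lower (Ier3, Nr4a1 and Atf3) and 21 stood below 0, with a median of -0.11, and 17 stood below 0 in BPH/2J and 13 in BPN/3J. Without the same library 8 of 22 stood above 0, 2 were lower at that threshold and the median was -0.03. Ier3 was at 13.2, 15.6, 18.04 and 11.9 CPM in treated and 19.2, 25.5, 28.5, 23.6 and 21.1 CPM in vehicle BPH/2J mice. The BPH/2J groups of Ier3 did not overlap, whereas the BPN/3J ones did, with log2 fold changes of -0.68 and -0.12 (edgeR interaction p 0.0187, not called after adjustment). Of 20 heat shock and unfolded protein genes 3 were lower (Xbp1, Hspa1a and Hsph1), with a median of -0.10, and 1 without treated BPH/2J replicate 2 or 5. Xbp1, a transcription factor of the unfolded protein response, was at 107, 113, 111, 99.5 and 133 CPM in treated and 192, 117, 210 and 194 CPM in vehicle BPN/3J mice, so that 3 of 4 vehicle mice stood above every treated one. In BPH/2J the Xbp1 groups overlapped throughout, with a log2 fold change of -0.11.

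Markers of tubule segments and vessels had few members at an unadjusted edgeR p under 0.05 over both strains, where 1.37% of all genes were higher and 1.72% lower. Proximal tubule markers had 2 of 22 higher: Gatm, the first enzyme of creatine synthesis, at 839 ± 124 CPM with treatment and 677 ± 138 CPM under vehicle (SD, n = 9 each), and Slc6a19, a neutral amino acid transporter, with a log2 fold change of 0.29. The thick ascending limb had 0 of 10 (median -0.16) and intercalated cells 0 of 11 (median 0.06). Distal convoluted tubule markers had 1 of 10, Stk39, the kinase SPAK that activates the sodium chloride cotransporter, lower at -0.26, and connecting tubule and principal cell markers 1 of 16, the water channel Aqp4, at -0.85. Podocyte markers had 1 of 15, Magi2, higher, and 5 without treated BPH/2J replicate 3. Endothelial markers had 1 of 16 higher, the VEGF receptor Kdr, at 0.43 (edgeR p 0.0177), and in BPN/3J all 16 stood above 0, with a median of 0.33 and 7 higher at an unadjusted edgeR p under 0.05, where 2.85% of all genes were, against a median of -0.05 in BPH/2J. That count of 7 ran from 3, without vehicle BPN/3J replicate 3, to 12, without vehicle BPN/3J replicate 4, and the pooled count of 1 was 4 without vehicle BPH/2J replicate 4.

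Markers of tissue around the kidney varied by mouse. Over both strains 1.37% of all genes were higher and 1.72% lower at an unadjusted edgeR p under 0.05. Urothelial markers had 5 of 12 lower at that threshold (Krt19, Upk1b, Upk2, Upk3a and Upk3b). Their median was -1.23, with -2.10 in BPH/2J and -0.22 in BPN/3J. Upk1b, a uroplakin of the urinary tract lining, was at 0.0670, 0.870, 0.390 and 0 CPM in treated and 0.816, 0.645, 0.633, 13.2 and 0.346 CPM in vehicle BPH/2J mice, and vehicle replicate 4 alone stood above 0.870 CPM in that strain. Without that library 1 of the 10 then tested was at an unadjusted edgeR p under 0.05, and the median was -0.65 over both strains and -0.68 in BPH/2J. Without vehicle BPN/3J replicate 2 there were 2 of 12. Fat cell markers had 0 of 12 over both strains, and 8 of the 11 then tested lower without treated BPN/3J replicate 1. Their medians with all 18 libraries were -3.70 in BPH/2J and 1.55 in BPN/3J. Their sums were highest in vehicle BPH/2J replicate 4, at 402 CPM, and treated BPN/3J replicate 1, at 461 CPM, against 119 to 204 CPM in the other 16 mice, and the pooled median was 0.34 without the former and -2.19 without the latter. The BPH/2J median was -1.49 without the former, and the BPN/3J median turned to -0.78 without the latter. Red blood cell markers had 2 of 8 higher, Alas2 and Hbb-bs, with a median of 0.45 in BPH/2J and 0.01 in BPN/3J, and the count was 0 without treated BPN/3J replicate 1 and 4 without vehicle BPH/2J replicate 3.

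Metabolic lists were near 0. The counts below are at an unadjusted edgeR p under 0.05, where 1.37% of all genes were higher and 1.72% lower. Cholesterol synthesis had 1 of 20 lower, Hmgcs1 at -0.24, and a median of -0.03, and fatty acid oxidation and ketone genes had Slc16a1 higher and Angptl4, an inhibitor of lipoprotein lipase, lower at -0.44 out of 20. Xenobiotic metabolism had 1 of 24 lower (Gstm1), and cell cycle genes 0 of 20. Of the 13 genes of the mitochondrial genome 1 was lower, ATP8 at -0.29, and the mitochondrial share of counts differed by 0.329 percentage points, higher with treatment (exact permutation within strains, two-sided p 0.820).

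**Figure D5:**
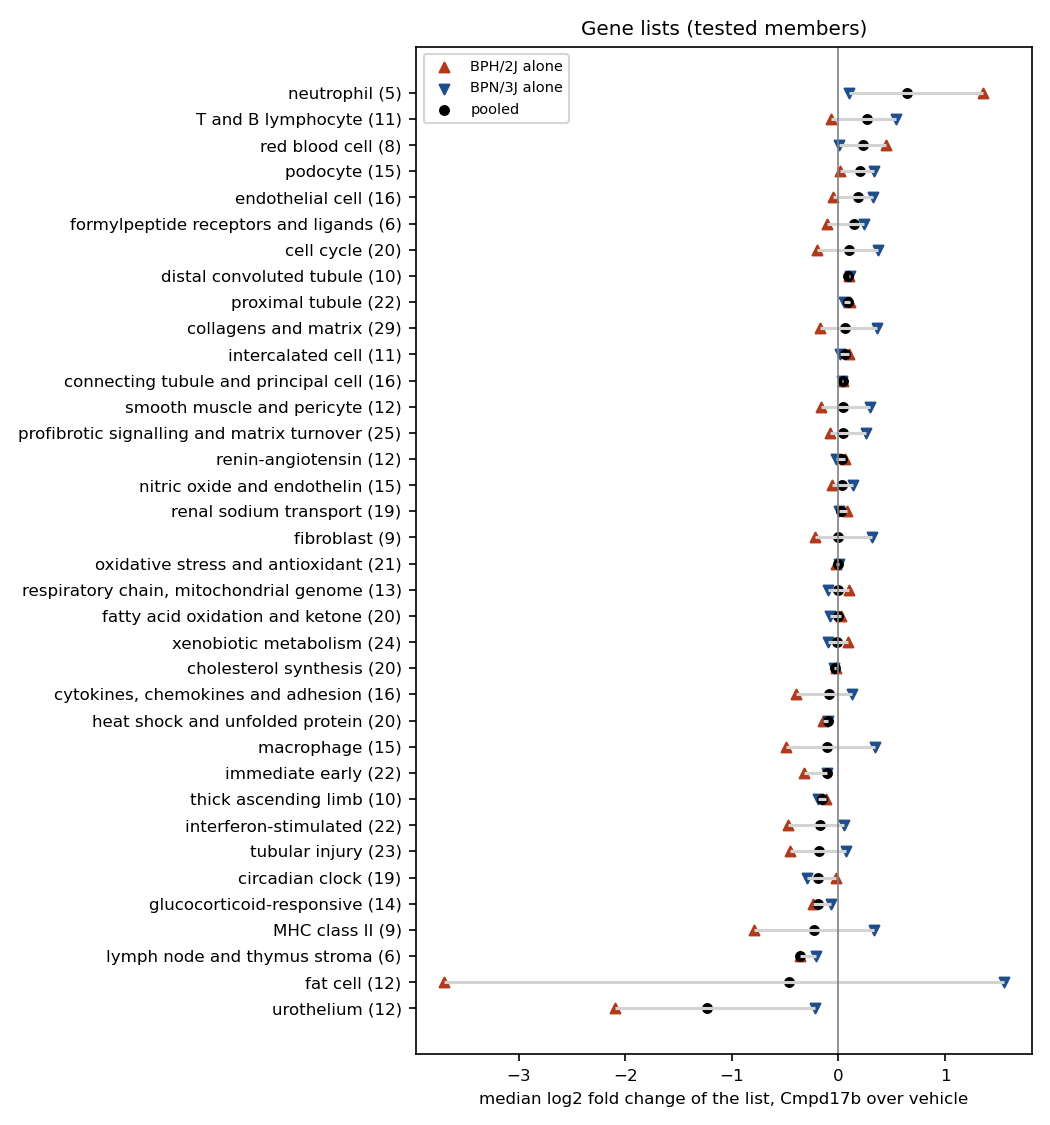
Median log2 fold change of the tested members of each list with at least 5 of them (horizontal axis; number of members in parentheses on the vertical axis), with black points for both strains pooled and triangles for BPH/2J and BPN/3J alone. Pooled medians lie near 0 for most lists, and the strains lie farthest apart for fat cell markers, at -3.70 and 1.55, and urothelial markers, at -2.10 and -0.22.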

How the data were processed

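Polyadenylated RNA labelled as kidney was sequenced from 19 mice, 1 library each, of which 1 held a heart profile and was left out. The authors deposited 1 table of 40413 gene symbols whose values are estimated counts (expected counts). Per the submitters' processing notes, the tools were Trim Galore 0.6.7 for trimming, then STAR 2.7.9a, with the mm39 (GRCm39) build. How genes were counted, with which annotation and with or without strand, is not given in the sources used here. Between 4.63% and 10.1% of a library's values were not whole, and values were rounded before testing.

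The 241 set-aside genes left the tests but stayed in library totals. Genes passed edgeR's filterByExpr (minimum count 10, minimum total 15), which left 16245. The fit used edgeR 4.0.16 under R 4.3.3 (TMM factors, robust quasi-likelihood, strain and treatment as additive terms) with Benjamini-Hochberg adjustment over all genes tested. Strains alone and the interaction were fitted on the same genes. Levels are CPM on the TMM scale unless stated otherwise, and an interval is the 95% interval of the fit. The spread between mice includes technical spread. Library measures were tested by exact permutation within strains.

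Named were the 12 higher and 12 lower genes with the smallest p among those whose mean log2 CPM was 1 or more, predicted loci left out, up to 3 members of each of 38 lists, and 33 single genes. Psca, Gsdmc3, Prdm1, Camk1g, Unc5c, Plaat1, Upk3a, Upk3b, Ciart, Clock, Cry1, Cry2, Per3, Nr1d2, Tef, Hlf, Gm34458 and Gm53621 were chosen once values were known. Members and lists were chosen with earlier results of these data known. Alternatives were DESeq2 1.42.0, limma-voom (limma 3.58.1), other scaling, filters and covariates, 1 surrogate variable (sva 3.50.0), and leaving out each library. DESeq2 without each library and the lists without each library were chosen after seeing the data. Scripts were tested on simulated data. Promoters came from RefSeq on GRCm38.p6, with no coordinates carried over to mm39, and 16 of 19 clock genes matched. Plots used matplotlib 3.10.9 (Python 3.11.15).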

Additional observations from a re-analysis of the deposited data

Results flagged for a closer look

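Within groups of 4 or 5 mice, some values had a gap to the nearest other mouse that was large for the range of the group by Dixon's test. Chance does this in about 1 in 20 groups, and the number of groups searched is not given. The values below are not all of this kind. Upk1b and Col1a1, described above, each had 1 vehicle BPH/2J mouse as far from the rest. Vehicle BPH/2J replicate 5 had a total count of 25840900, against 31475300 to 33616500 in the other mice of its group. Bmal1 was at 1.62 CPM in treated BPH/2J replicate 5, against 5.53 to 5.68 CPM in the other 3 mice. Pgpep1l was at 3.44 CPM in treated BPH/2J replicate 3, against 1.74 to 2.03 CPM, and Nmrk1 was at 72.6 CPM in the same mouse, against 54.7 to 57.8 CPM. Mitd1 was at 4.32 CPM in treated BPN/3J replicate 4, against 4.81 to 4.99 CPM in the other 4 mice.

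Signal also appeared outside the comparison. The library left out held Myh6 at 14199.9 CPM, against 0.140 to 1.84 CPM in the libraries outside its group. The set-aside genes summed to a median of 1082 CPM in the 4 treated BPH/2J libraries kept, against 783 to 943 CPM in vehicle BPH/2J.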

How the results depend on the processing

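The count of 0 called genes over both strains held under 13 of 15 alternative settings and without each of the 18 libraries in turn (0 to 0 genes). DESeq2 gave 2, and the cause was not tested. Keeping the set-aside genes gave 4, Actc1, Ckmt2, Csrp3 and Myl2, all of them set-aside genes that the test reported did not hold. Within strains DESeq2 gave 1 gene in BPH/2J and 26 in BPN/3J, and edgeR 0 without each library in turn. Per2 and Slc16a1 kept their sign throughout, and with all 19 libraries Slc16a1 stood at 1.44. With all 19 libraries Stk39 turned to 0.16 and Nr4a1 to 0.11, and the cause was not tested. The clock list had 7 of 19 members at an unadjusted edgeR p under 0.05 with all 19 libraries.

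The lower total count with treatment was -4786650 in BPH/2J alone (exact permutation p 0.0556) and -4869450 in BPN/3J alone (exact permutation p 0.175), and -5969860 to -3891340 without each library in turn. With all 18 libraries its unadjusted p was 0.0228 and its adjusted p 0.0912 (exact permutation within strains). The unadjusted p was above 0.05 without vehicle BPN/3J replicate 3 and without vehicle BPN/3J replicate 4. In BPN/3J alone the sign turned for the mitochondrial share (-0.480 percentage points), the share of the 10 most abundant genes (-0.651) and the number of genes detected (-284). Without each library in turn these ran from -0.770 to 0.893, from -0.968 to 1.30 and from -539 to 432. The first and second turned below 0 without vehicle BPH/2J replicate 2 or treated BPH/2J replicate 5, the third without treated BPH/2J replicate 4 or vehicle BPH/2J replicate 3.

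No paired analysis was possible because the labels give animal numbers that the groups do not share, and replicate numbers here follow accession order. Depth limits genes such as Fpr1 and Fpr2, which were at most 0.405 CPM in every library.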
